A study of Mus musculus with 4 samples.

Results

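The genes described here are 9 transcription factors of cortical projection neurons, namely *Tbr1*, *Foxp2*, *Bcl11b*, *Fezf2*, *Cux1*, *Cux2*, *Foxp1*, *Bcl11a* and *Mef2c*. They were taken by symbol, because they are established regulators or markers of cortical layer identity. The choice was made with earlier results of these data known. These factors are 9 of the 23420 gene symbols in the count tables. Bulk RNA was sequenced from prefrontal cortex (PFC) of C57BL6/J mice. In 2 control samples (labelled GFP-AAV9) and 2 *Ash1L* shRNA samples (labelled shRNA_ASH1L-AAV9) the animals had received a virus of the same serotype, AAV9. The shRNA was driven by a U6 promoter, which is not restricted to a cell type, in a GFP-tagged virus injected on both sides of the medial PFC. The methods of the study put the injection at 5 weeks of age, pooled the punches of 3 mice into each sample, and call the control virus a scrambled shRNA. The series description instead gives an age of 6 to 8 weeks, with 3 knockdown mice and 2 control mice. The p-values given here measure only the spread between these 4 samples.

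Projection neurons are the glutamatergic neurons of the cortex that send long axons, and they are born in an inside-out order, deep layers first. In the embryo, TBR1 specifies layer VI neurons that project to the thalamus, FEZF2 and its downstream partner BCL11B (CTIP2) specify layer V neurons that project below the cortex, and CUX1 and CUX2 mark the upper layers. Several of these factors repress each other's programs during development, and in the adult cortex most of them remain expressed in the layers they helped to specify. In bulk tissue, fewer cells of a type and less RNA per cell cannot be told apart.

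The promoters of the factors differed widely in CpG content. RefSeq entries (GRCm38.p6) matched 8 of the 9 genes, all but *Foxp2*, with several start sites for some of them. The 250 bases before the start held from 1 CpG (*Mef2c*, its first start) to 40 CpGs (*Cux2*, its first start), against a median of 6 over the 32851 promoters of the table. The sequences below are shown because they span CpG-poor and CpG-rich starts of the factors. They are read 5′ to 3′ on the strand of the gene, cut to the bases outside annotated exons, with each CpG in capitals.

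The first start of *Mef2c* (chr13:83503784-83504033, plus strand) has 1 CpG in 250 bases.

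Mef2c: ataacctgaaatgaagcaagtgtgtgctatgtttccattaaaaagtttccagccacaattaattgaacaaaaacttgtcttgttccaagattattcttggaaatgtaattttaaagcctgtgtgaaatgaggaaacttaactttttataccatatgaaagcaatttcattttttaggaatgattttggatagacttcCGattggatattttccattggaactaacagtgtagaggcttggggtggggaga

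The CpG-rich start of *Foxp1* (chr6:99028314-99028548, minus strand) has 30 CpGs in 235 bases.

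Foxp1: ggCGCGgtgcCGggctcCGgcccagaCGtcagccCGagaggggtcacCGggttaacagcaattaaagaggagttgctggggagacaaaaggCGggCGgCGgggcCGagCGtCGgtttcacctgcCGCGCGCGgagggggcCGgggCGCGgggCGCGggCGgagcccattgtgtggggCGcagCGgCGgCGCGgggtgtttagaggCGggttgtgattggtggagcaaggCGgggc

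The start of *Bcl11a* (chr11:24080445-24080669, plus strand) has 12 CpGs in 225 bases.

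Bcl11a: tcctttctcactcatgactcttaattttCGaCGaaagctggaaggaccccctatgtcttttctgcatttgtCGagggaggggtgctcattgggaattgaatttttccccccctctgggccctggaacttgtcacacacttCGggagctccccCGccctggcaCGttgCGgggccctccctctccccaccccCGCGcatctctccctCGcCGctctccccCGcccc

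The first start of *Cux2* (chr5:122049852-122050015, minus strand) has 28 CpGs in 164 bases.

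Cux2: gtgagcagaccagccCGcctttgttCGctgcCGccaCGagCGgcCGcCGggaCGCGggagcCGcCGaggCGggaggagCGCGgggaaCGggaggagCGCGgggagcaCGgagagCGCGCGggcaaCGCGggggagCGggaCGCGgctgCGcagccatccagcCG

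The start of *Fezf2* (chr14:12345960-12346115, minus strand) has 9 CpGs in 156 bases.

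Fezf2: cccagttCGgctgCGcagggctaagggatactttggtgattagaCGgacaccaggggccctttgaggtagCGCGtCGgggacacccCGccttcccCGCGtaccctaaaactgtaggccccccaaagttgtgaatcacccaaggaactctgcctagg

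Motifs bound by families of these factors were searched in the 13 windows of the 8 genes. The forkhead motif TGTTTAC, searched on both strands, was in 3.17% of all promoters and matched 1 member window, that of *Cux1*. The T-box motif GGTGTGA was in 3.33% of all promoters and in 0 member windows. The CUX motif ATCGAT was in 0.728% of all promoters and matched 1 member window, at the second start of *Cux2*. A match describes the letters only, and none of the windows was tested for binding. Both *Foxp1* and *Cux2* have CpG-rich and CpG-poor starts, with 34, 11 and 3 CpGs before those of *Foxp1* and 40 and 3 before those of *Cux2*. The counts in RNA are per gene and do not separate the starts.

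Counts summed to between 14251190 and 35764874 per sample, and 16232 genes passed edgeR's filter on low counts, all 9 factors among them. *Ash1l*, the gene targeted by the shRNA, had 245 and 290 CPM (counts relative to the size of the library, corrected with TMM factors) in the control samples and 216 and 138 in the *Ash1L* shRNA samples, with a log2 fold change of -0.60. Both *Ash1L* shRNA samples were below both controls, and sample 2 was the lower. A gene is named called lower or called higher here if its p in edgeR's quasi-likelihood test was under 0.05 without adjustment and its change was at least 1.2-fold. By that rule 8.28% of all tested genes were called lower and 8.61% higher, so calls were common in both directions. After Benjamini-Hochberg adjustment 1 gene had a p under 0.05, and it was no member. Excitatory neuron markers were abundant in every sample, with summed levels of 4124 and 4928 CPM in controls and 3901 and 3376 CPM in *Ash1L* shRNA samples. They mark projection neurons, but several of the factors are also expressed in other cell types.

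Of the 9 factors, 5 were called lower in *Ash1L* shRNA samples and 0 higher, beside a background of 8.28% called lower. They were *Tbr1*, *Foxp2*, *Bcl11b*, *Fezf2* and *Bcl11a*. Because the factors were chosen with earlier results of these data known, their share beside the background is no independent evidence of enrichment. All 4 deep-layer factors were called lower, with levels between 55.5% and 72.1% of the control mean. Neither upper-layer factor was called, with *Cux1* at 88.7% and *Cux2* at 96.9% of the control mean. The 3 factors of several layers, *Foxp1*, *Bcl11a* and *Mef2c*, were between 67.4% and 70.9%, within the range of the deep-layer factors. With TMM scaling the fitted log2 fold changes of all 9 were below 0 and their median was -0.52, against -0.0027 over all tested genes, but those of *Cux1* and *Cux2* turned positive when samples were scaled to neuronal or excitatory neuron markers. None of the 9 passed edgeR's adjusted p of 0.05 (adjusted p from 0.253 to 0.849, with 5 under an unadjusted 0.05), whereas DESeq2 and edgeR's likelihood ratio test each passed 1 member.

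*Tbr1* (ENSMUSG00000035033, chromosome 2 of mm10, 61802930 to 61814114), the T-box factor of layer VI corticothalamic neurons, had 77.3 and 75.7 CPM in control samples 1 and 2 and 57.4 and 32.6 CPM in *Ash1L* shRNA samples 1 and 2. The controls differed by only 0.03 on the log2 scale, and both *Ash1L* shRNA samples lay well below them. Its log2 fold change of -0.76 had a standard error (SE) of 0.26 and a 95% interval from -1.40 to -0.13 (adjusted p 0.262 in edgeR).

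*Foxp2* (ENSMUSG00000029563, chromosome 6, 14901349 to 15441977), a forkhead repressor that in the adult cortex is a marker of layer VI, had 23.0 and 25.9 CPM in controls and 19.9 and 13.7 CPM in *Ash1L* shRNA samples. The groups did not overlap, although *Ash1L* shRNA sample 1 was close to control sample 1. Its log2 fold change was -0.54 (SE 0.21, 95% interval -1.04 to -0.04, adjusted p 0.278 in edgeR). *Foxp2* lost its call when the replicate number entered as a block (log2 fold change -0.56, unadjusted p 0.0515 in edgeR).

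*Fezf2* (ENSMUSG00000021743, chromosome 14, 12342094 to 12348189), the zinc finger factor that specifies subcerebral projection neurons of layer V, had 29.0 and 34.2 CPM in controls and 20.7 and 14.3 CPM in *Ash1L* shRNA samples. Both *Ash1L* shRNA samples were far below both controls, and the mean was 55.5% of the control mean, the lowest share of the 9. The log2 fold change was -0.85 (SE 0.21, 95% interval -1.35 to -0.35, adjusted p 0.253 in edgeR). *Fezf2* was the one member past an adjusted p of 0.05 in DESeq2 (adjusted p 0.0356), and the one called lower with any of the 4 samples left out.

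*Bcl11b* (ENSMUSG00000048251, chromosome 12, 107910403 to 108003602), which acts downstream of FEZF2 in layer V neurons and is also expressed in striatal neurons and in some interneurons, had 67.9 and 71.6 CPM in controls and 59.6 and 41.0 CPM in *Ash1L* shRNA samples. The controls lay close together and the groups did not overlap. Its log2 fold change was -0.47 (SE 0.19, 95% interval -0.92 to -0.02, adjusted p 0.285 in edgeR), the smallest of the 4 deep-layer factors.

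*Cux1* (ENSMUSG00000029705, chromosome 5, 136248135 to 136567490), a homeodomain factor of upper-layer neurons that shapes their dendrites and is expressed in many other cell types as well, had 60.5 and 72.6 CPM in controls and 63.8 and 54.4 CPM in *Ash1L* shRNA samples. The groups overlapped, since *Ash1L* shRNA sample 1 was above control sample 1. The log2 fold change was -0.17 (SE 0.14, 95% interval -0.52 to 0.18, adjusted p 0.558 in edgeR).

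*Cux2* (ENSMUSG00000042589, chromosome 5, 121856366 to 122050102), its more restricted paralog and a standard marker of layers II to IV, had 76.4 and 80.8 CPM in controls and 76.2 and 76.1 CPM in *Ash1L* shRNA samples. The 4 values were nearly level, with *Ash1L* shRNA samples below the controls by a margin smaller than the gap between the controls. The log2 fold change was -0.05 (SE 0.11, adjusted p 0.849 in edgeR), and its 95% interval ran from -0.30 to 0.21, so a decrease of the size fitted for any of the other members but *Cux1* lies outside it.

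*Foxp1* (ENSMUSG00000030067, chromosome 6, 98925338 to 99522721), the forkhead paralog of *Foxp2* that is found in layers III to VI and in striatal neurons, had 111 and 125 CPM in controls and 101 and 63.8 CPM in *Ash1L* shRNA samples. The groups did not overlap, and *Ash1L* shRNA sample 2 was apart from the other 3 samples. Its log2 fold change was -0.52 (SE 0.22, 95% interval -1.06 to 0.01, adjusted p 0.302 in edgeR), just short of a call. DESeq2, the likelihood ratio test of edgeR and the fit without the filter on low counts called it lower.

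*Bcl11a* (ENSMUSG00000000861, chromosome 11, 24078056 to 24174123), also called CTIP1, which acts in deep-layer neurons against the subcerebral fate and is expressed in upper layers and interneurons too, had 55.6 and 42.7 CPM in controls and 39.1 and 26.9 CPM in *Ash1L* shRNA samples. The groups did not overlap, yet the controls were farther apart (0.38 on the log2 scale) than for any other member. The log2 fold change was -0.57 (SE 0.22, 95% interval -1.10 to -0.04, adjusted p 0.281 in edgeR).

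*Mef2c* (ENSMUSG00000005583, chromosome 13, 83504034 to 83667080), an activity-regulated MADS-box factor of excitatory neurons and interneurons that is also expressed in microglia and endothelial cells, had 909 and 1105 CPM in controls and 886 and 541 CPM in *Ash1L* shRNA samples. *Ash1L* shRNA sample 1 was only just below control sample 1, and sample 2 was well below both controls. The log2 fold change was -0.50 (SE 0.25, 95% interval -1.10 to 0.11, adjusted p 0.354 in edgeR) and the gene was not called. DESeq2 called *Mef2c* lower, at an unadjusted p of 0.0351 and an adjusted p of 0.282. Microglial markers had summed levels of 1025 and 1060 CPM in controls and 1402 and 547 CPM in *Ash1L* shRNA samples. Of 12 microglial markers 0 were called (edgeR, 0 also at an unadjusted p under 0.05). Over all tested genes 8.28% were called lower and 8.61% higher. The summed microglial level was highest in *Ash1L* shRNA sample 1, and the level of *Mef2c* was highest in control sample 2. The part of microglia in the value of *Mef2c* was not tested. Endothelial markers had summed levels between 397 and 444 CPM.

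**Figure D1:**
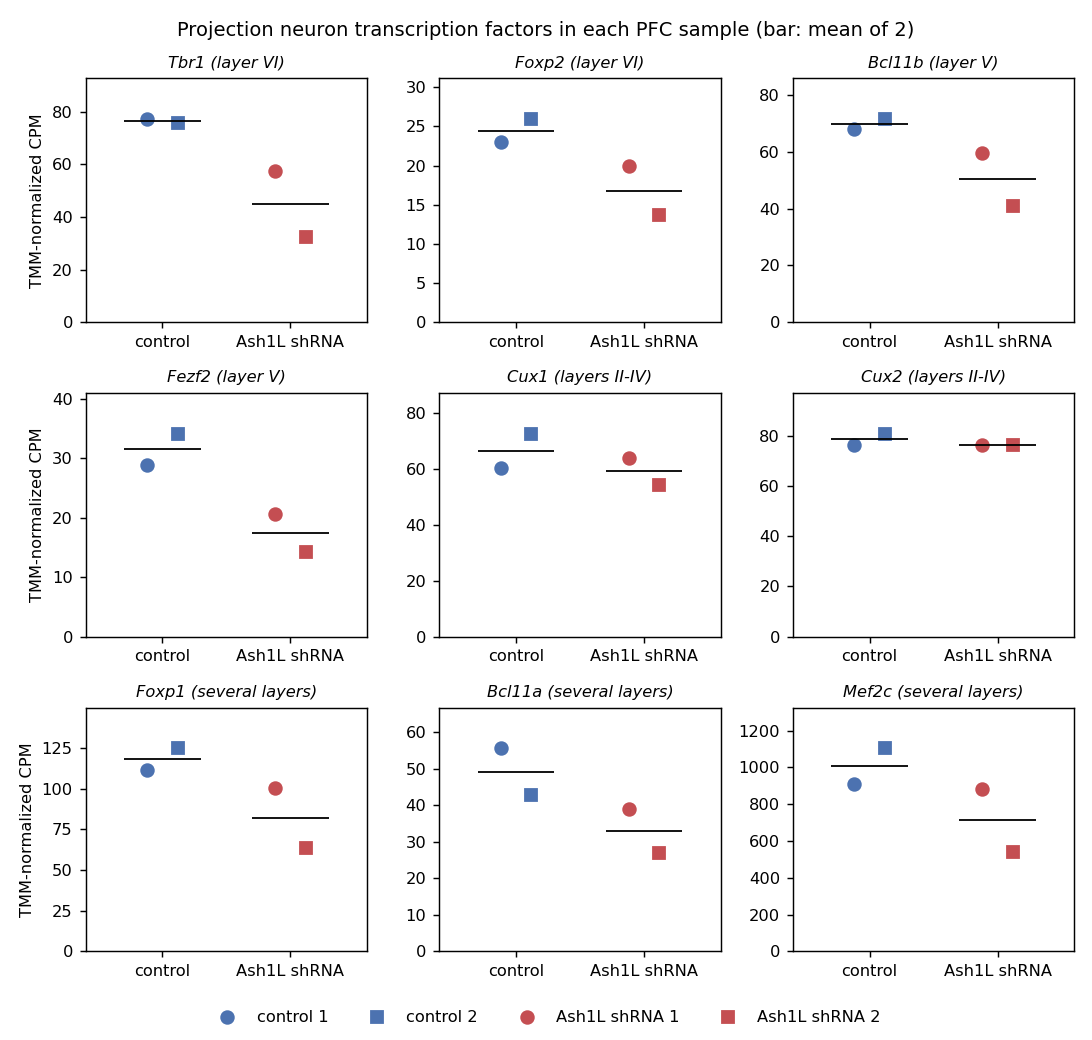
Level of each of the 9 factors in each sample, as TMM-normalized CPM (vertical axis from 0), for controls (blue) and *Ash1L* shRNA samples (red), with circles for sample 1, squares for sample 2 and a bar at the mean of 2 samples. *Fezf2* goes from 29.0 and 34.2 in controls to 20.7 and 14.3, while *Cux2* stays between 76.1 and 80.8 in all 4 samples.

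Both *Ash1L* shRNA samples were below both controls for 8 of the 9 factors, all but *Cux1*, against 26.8% of all tested genes. This share too is limited by the choice of the factors with earlier results known. The size of the decrease differed between the *Ash1L* shRNA samples. All 9 factors were lower in *Ash1L* shRNA sample 2 than in sample 1, by a margin of almost nothing for *Cux2*. The median deviation from the control mean was -0.23 on the log2 scale in sample 1 and -0.86 in sample 2. *Ash1l* itself showed the same order with -0.31 and -0.96. That order was not particular to them, as medians of excitatory (-0.18 and -0.64), interneuron (-0.27 and -0.53) and astrocyte markers (-0.53 and -0.89) show. Oligodendrocyte, microglial and endothelial markers had it too, while pan-neuronal (-0.020 and -0.015) and striatal markers (0.064 and 0.33) did not. The *Ash1L* shRNA samples differed from each other by a median of 0.54 over the factors, against 0.18 between the controls. The lowest count of any factor was 284 (*Foxp2*), where counting error is 5.93% of the value.

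The fitted size of the decrease depended on single samples. Without *Ash1L* shRNA sample 2 the median log2 fold change of the 9 was -0.23, against -0.0068 over all tested genes. Without *Ash1L* shRNA sample 1 it was -0.87, against -0.0056. Without control sample 1 it was -0.59, against 0.018, and without control sample 2 it was -0.44, against 0.010. The number of calls also moved with the sample left out, both among the factors and over all genes. Fitted log2 fold changes of all 9 stayed below 0 in each of these 4 fits.

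**Figure D2:**
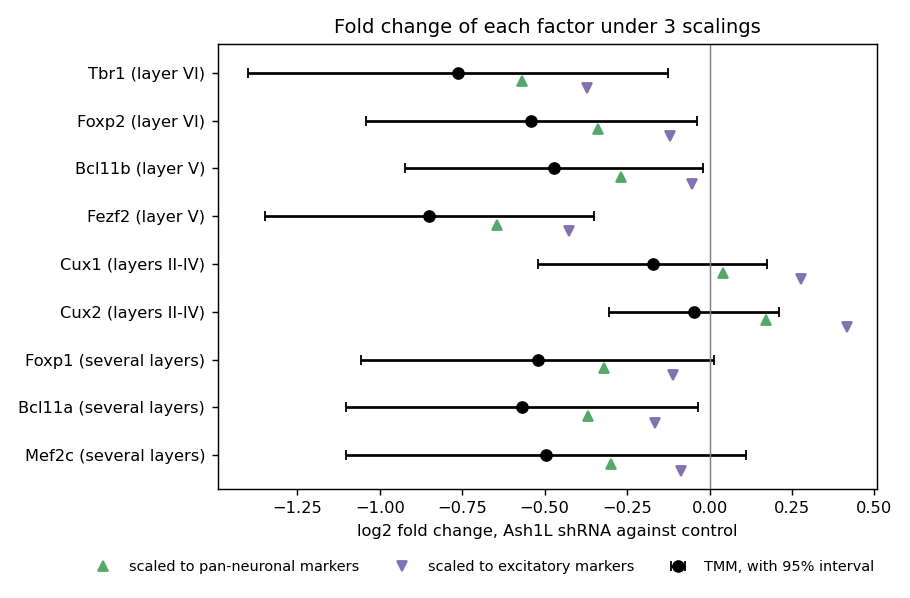
Log2 fold change of each factor, *Ash1L* shRNA against control (horizontal axis), with TMM scaling and its 95% interval (black), and the value after scaling to pan-neuronal markers (green) or excitatory neuron markers (purple). Intervals of *Tbr1*, *Foxp2*, *Bcl11b*, *Fezf2* and *Bcl11a* lie below 0 with TMM scaling, and *Cux1* and *Cux2* move above 0 under both marker scalings.

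Scaling the samples to the summed counts of pan-neuronal markers moved every factor upward. The summed pan-neuronal level was 8843 and 9006 CPM in controls and 8153 and 7241 CPM in *Ash1L* shRNA samples, although the median log2 fold change of the 12 markers was near 0. Abundant markers weigh most in that sum, among them *Snap25* (-0.27) and *Syt1* (-0.69). With pan-neuronal markers as the scale, the median of all tested genes moved to 0.22 and 2 factors, *Tbr1* (-0.57) and *Fezf2* (-0.65), were still called lower. The excitatory scale was not a sum but the geometric mean of the counts of its 8 markers, in which each marker weighs the same. With that scale, the median of all genes moved to 0.46 and 0 factors were called in either direction (edgeR, 0 with an unadjusted p under 0.05). Such a scaling shifts all genes by nearly the same amount, so it leaves the order of the factors almost as it was. Excitatory markers had themselves a median log2 fold change of -0.40 with TMM, and 8 of 8 had fitted values below 0.

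Per kilobase of exon, *Mef2c* was by far the most abundant factor in controls, at 64.1 CPM per kb. *Tbr1* (13.9) and *Fezf2* (10.4) followed. *Bcl11b* (8.60) and *Foxp1* (8.59) had overlapping levels, and *Cux2* (7.80) was below both. *Bcl11a* (3.73) and *Cux1* (3.32) again overlapped, and *Foxp2* was lowest (1.40 and 1.59 in the control samples). Among *Ash1L* shRNA samples *Mef2c* (45.4) and *Tbr1* (8.20) were still first by their means and *Foxp2* (1.03) was last. *Cux2* (7.55), the 6th of the order in controls, was 3rd in *Ash1L* shRNA samples, and *Fezf2* (5.75) went from 3rd to 6th. In *Ash1L* shRNA sample 2 alone *Cux2* was 2nd, above *Tbr1*.

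Differences between factors within a sample do not depend on the scale chosen for the sample. The level of *Tbr1* per kb exceeded that of *Cux2* by 0.89 and 0.78 on the log2 scale in controls. In *Ash1L* shRNA samples the difference was 0.47 and -0.35, so *Tbr1* was below *Cux2* in sample 2. *Fezf2* exceeded *Cux2* by 0.33 and 0.49 in controls and was below it in both *Ash1L* shRNA samples (-0.15 and -0.68). Averaged over its factors, layer VI minus the upper layers was -0.11 and -0.20 in controls and -0.46 and -1.02 in *Ash1L* shRNA samples. Layer V minus the upper layers was 0.90 and 0.88 in controls and 0.52 and 0.11 in *Ash1L* shRNA samples. The groups did not overlap in any of these 4 differences, but with 2 samples in each group the smallest two-sided p of an exact permutation test is 0.333.

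Pairs within a family, and the leading factors of layers VI and V, had overlapping groups. *Foxp1* exceeded its paralog *Foxp2* by 2.53 and 2.52 in controls and by 2.59 and 2.47 in *Ash1L* shRNA samples. The controls lay between the *Ash1L* shRNA samples. *Tbr1* exceeded *Fezf2* by 0.57 and 0.30 in controls and by 0.62 and 0.34 in *Ash1L* shRNA samples. *Bcl11a* against *Bcl11b* and *Cux1* against *Cux2* overlapped as well.

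**Figure D3:**
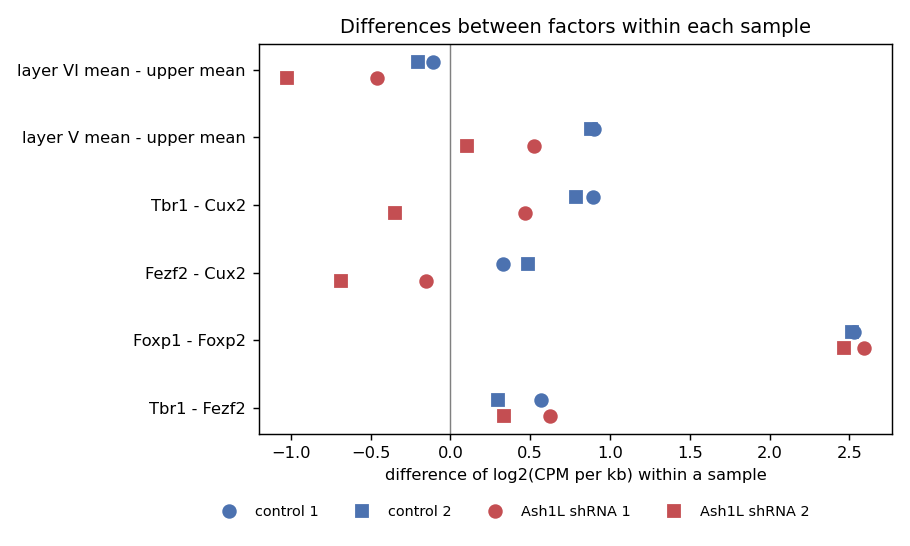
Difference between log2 levels per kilobase (horizontal axis, log2 of CPM per kb) of 2 factors or layer means within each sample, for controls (blue) and *Ash1L* shRNA samples (red), with circles for sample 1 and squares for sample 2. The 4 differences against upper-layer factors are lower in both *Ash1L* shRNA samples, while *Foxp1* minus *Foxp2* stays between 2.47 and 2.59.

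Of 29 other regulators of projection neurons 6 were called lower and 1 higher, beside 8.28% and 8.61% of all tested genes, and their median log2 fold change was -0.33. Both *Ash1L* shRNA samples were below both controls for 17 of the 29, against 26.8% of all tested genes. Like the factors, the other gene lists were chosen with earlier results of these data known. Among 10 other deep-layer regulators 3 were called lower and 0 higher. They were *Tle4*, a corepressor of layer VI neurons (101 and 102 CPM in controls, 80.5 and 71.5 in *Ash1L* shRNA samples, log2 fold change -0.42), *Etv1*, an ETS factor of layer V (-0.49), and *Tshz3* (-0.41), a zinc finger factor. *Ldb2*, a cofactor of LIM proteins enriched in layer V, was not called (-0.18). The ends of this list rested on single samples. *Tshz2* had 91.5 CPM in control sample 1 and between 30.4 and 39.6 CPM in the other 3 samples, and *Nr4a2* had 44.7 CPM in *Ash1L* shRNA sample 2 and between 4.89 and 10.9 CPM in the other 3.

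Of 7 other upper-layer regulators 0 were called in edgeR (0 also had an unadjusted p under 0.05). Over all tested genes 8.28% were called lower and 8.61% higher. Yet 6 of the 7 regulators had fitted values below 0. *Lmo4* (-0.38), a LIM-only regulator, and the POU factor *Pou3f3* (-0.31) were below both controls in both *Ash1L* shRNA samples. The list ranged from *Pou3f2* at -0.84 with an SE of 0.46 to *Pou3f1* at 0.12, and its median of -0.38 was lower than the -0.27 of the other deep-layer regulators. The calls ran the other way, with 3 of 10 deep-layer and 0 of 7 upper-layer regulators called lower, and the difference between these lists was not tested.

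Of 12 pan-cortical regulators 3 were called lower and 1 higher, beside 8.28% and 8.61% of all tested genes. The 1 called higher is near that share. The neurogenic helix-loop-helix factors *Neurod2* (-0.53) and *Neurod6* (-0.45) were called lower, and *Foxp4* (-0.90), a paralog of *Foxp1* and *Foxp2*, had the lowest value. *Foxp4* is also expressed in striatal neurons. *Id2*, an inhibitor of such factors, was not called (-0.30). *Mef2a*, a paralog of *Mef2c*, was called higher at 0.32 with an SE of 0.10, with 101 and 101 CPM in controls and 127 and 125 CPM in *Ash1L* shRNA samples. That call was lost with the replicate block, with a 1.5-fold limit and without either control sample.

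Of 30 effector genes, which carry out layer-specific functions, 6 were called lower and 2 higher, beside 8.28% and 8.61% of all tested genes, and their median was -0.17. In layer VI, *Hs3st4*, a heparan sulfate sulfotransferase, was called lower (-0.41) and *Crtac1* higher (0.32), while *Nxph3* (-0.68) and *Rprm* (0.04) were not called. The layer VI list ended at *Nxph4* (-0.73), which was under 1 CPM in every sample, and *Syt6* (0.40). In layer V, *Parm1* (-0.83) was called lower, and the calmodulin-binding *Pcp4* (-0.04), *Crym* (0.08) and *Sulf2* (-0.03) had overlapping groups. In the upper layers, *Calb1* (calbindin, -0.77), *Otof* and *Stard8* were called lower. *Inhba*, an activity-regulated TGF-beta family ligand, was called higher at 1.98 with an SE of 0.60, with 7.23 and 4.62 CPM in controls and 11.0 and 35.0 CPM in *Ash1L* shRNA samples. *Wfs1* (0.87) and *Rasgrf2* (0.01) were not called.

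**Figure D4:**
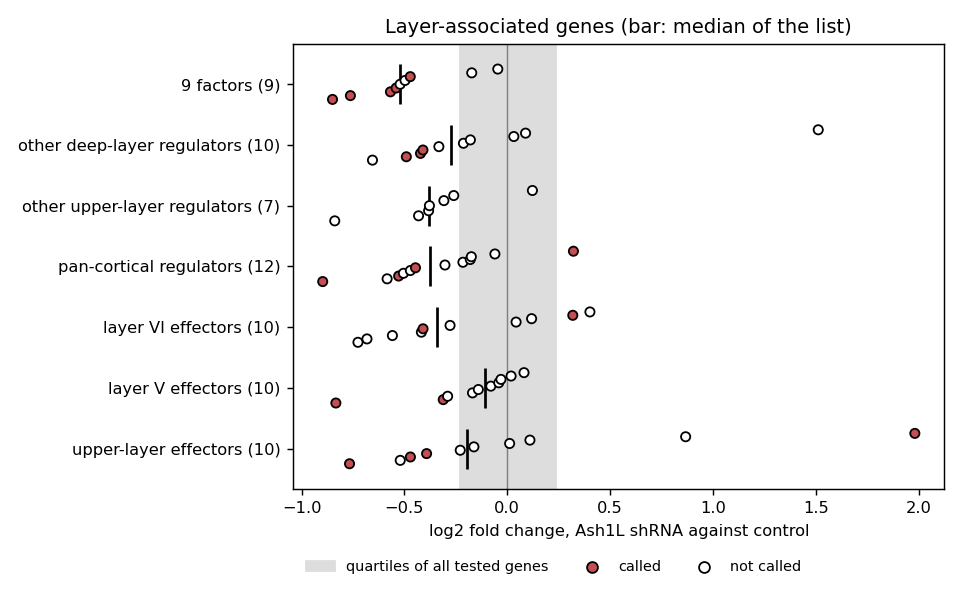
Log2 fold change, *Ash1L* shRNA against control (horizontal axis), of each gene in the 9 factors and 6 other lists of layer-associated genes (points, red if called in either direction, number of genes in parentheses), with the median of each list (bar) and the quartiles of all tested genes (grey). Of the 9 factors 7 lie left of the lower quartile of -0.23, with the *Cux* genes inside the band, and the medians of all 6 other lists are also below 0 with TMM scaling.

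Levels of several marker lists differed between the samples. The counts of calls below stand beside 8.28% of all tested genes called lower and 8.61% higher. Of 12 astrocyte markers 8 were called lower and 0 higher, with a median of -0.65, and their summed level was 5781 and 6102 CPM in controls and 4646 and 3434 CPM in *Ash1L* shRNA samples. Interneuron markers, whose cells also express *Bcl11a*, *Bcl11b* and *Mef2c*, had 4 of 10 called lower and a median of -0.43. Excitatory markers had 2 of 8 called lower, *Camk2a* and *Neurod6*, the latter also among the pan-cortical regulators. Of 12 pan-neuronal markers 1 was called lower, *Syt1*, near the share of all genes called lower, and the median was -0.0038. Striatal neurons, which express *Foxp1*, *Foxp2* and *Bcl11b*, lie near the medial PFC. Their markers had summed levels of 192 and 199 CPM in controls and 192 and 292 CPM in *Ash1L* shRNA samples. Of the 13 striatal markers 11 passed the filter, with 2 called lower and 2 higher, and the defining genes *Six3* and *Isl1* were too low to be tested. Both were at 0 in sample 1 of either group. In sample 2, *Isl1* had 4 counts in the control and 14 with *Ash1L* shRNA, and *Six3* had 2 in each. Oligodendrocyte markers had 2 of 11 called lower and 1 higher, with a median of -0.26. Endothelial markers had 0 of 12 called lower and 1 higher, near the share of all genes called higher, with a median of 0.10. The part of astrocytes, interneurons and striatal tissue in the values of the factors was not tested.

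**Figure D5:**
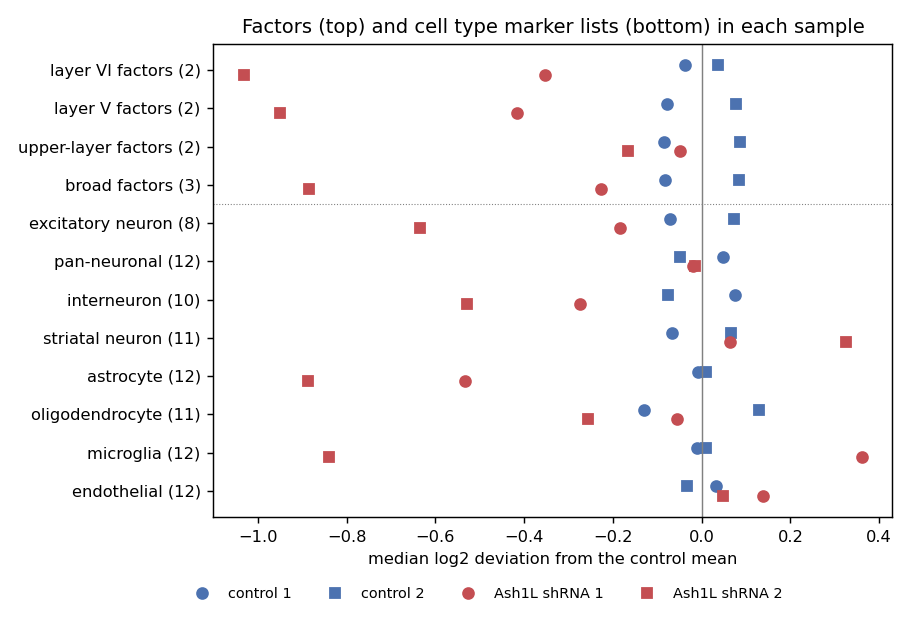
Median log2 deviation from the control mean (horizontal axis) of the factors by layer, above the dotted line, and of cell type marker lists, below it, in each control (blue) and *Ash1L* shRNA sample (red), with circles for sample 1, squares for sample 2 and the number of genes in parentheses. Layer VI factors are at -0.35 and -1.03 in *Ash1L* shRNA samples 1 and 2 and upper-layer factors at -0.05 and -0.17, while pan-neuronal markers are near 0 in both.

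Few exonic stretches of the factors occur in other annotated genes. Of all 50-base stretches in the exons of *Foxp1*, 2.42% also occur on the same strand in another gene, mostly the overlapping *Gm20696*. For *Cux1* 1.97% and for *Bcl11a* 1.68% occur in a gene on the opposite strand. *Fezf2* and *Mef2c* shared none. The strand setting of the counting is not given in the sources used here, so reads of *Cux1* and *Bcl11a* and those of their antisense partners cannot be told apart over these stretches.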

How the data were processed

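Total RNA of 4 PFC samples, 2 in each group by their labels, was sequenced from stranded libraries after removal of ribosomal RNA. The authors aligned reads to mm10 with STAR and summarised them over genes with featureCounts. The deposited tables hold 1 raw count for each gene symbol and were not normalized. The labels also name Cutadapt and TopHat2, whereas the file headers name STAR. The totals ran from 14251190 to 35764874.

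Counts were filtered with filterByExpr, scaled by TMM and tested with the quasi-likelihood F test of edgeR 4.0.16 in R 4.3.3 (robust, no covariate), with Benjamini-Hochberg adjustment over 16232 genes. The threshold of the calls (p under 0.05 without adjustment, 1.2-fold) follows the study's methods. Shown CPM are TMM-scaled, and CPM per kb were divided by the exonic length in GENCODE vM21, which matched 98.4% of symbols. Alternatives were DESeq2 1.42.0, the likelihood ratio test, other scalings and filters, a length offset, a replicate block, leaving out single samples and a limit of 1.5-fold. Scripts were tested on simulated data. Promoters are the RefSeq windows of GRCm38.p6.

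The replicates exceeded counting error (chi-square per degree of freedom 14.8 in controls and 42.3 in *Ash1L* shRNA samples). Same-numbered samples are different pools, and their deviations from the group means correlated at -0.10 over genes. With 2 samples in each group that correlation cannot show whether same-numbered samples share a batch, and the main fit did not pair them. The members and gene lists were chosen with earlier results of these data known. Named genes are the members, *Ash1l* and, of each other layer list, the 3 with the highest level per exonic length and both ends of the range of fold change. Others are named only within a count of 5 or fewer. Marker lists are given by counts. A few results that this rule would name are left out of the text.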

Additional observations from a re-analysis of the deposited data

How the results depend on the processing

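Of 162 member fold changes under the alternatives, 158 kept their direction. The 5 called factors kept their call in 66 of 90 values and lost it in 24, and the 4 others gained one in 10 of 72. The 4 that reversed were *Cux1* (0.040 and 0.28) and *Cux2* (0.17 and 0.42) under scaling to pan-neuronal and to excitatory markers, none of them called. Those scalings moved the median of all genes to 0.22 and 0.46. The count of factors called lower was 5. It became 2 with pan-neuronal scaling, 0 with excitatory scaling, 2 with the gene length offset and 2 with a 1.5-fold limit, and it ranged from 1 to 7 with 1 sample left out. With DESeq2 it was 7 and with the replicate block 4. The replicate block was the fit paired by number, and it changed the call of *Foxp2* alone among the members. With the crossed replicate block, chosen after seeing the data, 6 factors, 11 other regulators and 1736 genes in all were called lower.

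The 6 other regulators called lower became 1 with pan-neuronal scaling, 0 with excitatory scaling and 1 with a 1.5-fold limit, and ranged from 0 to 16 with 1 sample left out. The 1 called higher became 0 with the replicate block and 0 with a 1.5-fold limit, and ranged from 0 to 2 with 1 sample left out. Effector genes called lower (6) became 2, 0 and 2 under pan-neuronal scaling, excitatory scaling and the 1.5-fold limit, and ranged from 1 to 10 with 1 sample left out. Effectors called higher (2) became 6 with excitatory scaling and 1 with a 1.5-fold limit, and ranged from 0 to 4 with 1 sample left out. Over all genes, 1344 called lower became 406, 115 and 491 under pan-neuronal scaling, excitatory scaling and the 1.5-fold limit, and ranged from 306 to 2718. The 1397 called higher became 3225, 4052 and 765 under the same settings, and ranged from 423 to 2368. A lone sample left in a group was assumed to vary like the other group. Apart from the stricter limit, the cause was not tested. The lowest count of any factor was 284, and there were 2 samples in each group.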
